A study of Rattus norvegicus with 21 samples.

Results

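Macrophages of the liver were followed in a rat bile duct cancer through 10 genes, 5 that mark the resident Kupffer cells (Clec4f, Cd163, Marco, Vsig4 and Cd5l) and 5 that macrophages of many kinds or of recent arrival express (Gpnmb, Lgmn, Lyz2, Adgre1 and Csf1r). Of these 10 genes, 8 were measured by a probe set annotated to a single gene symbol, out of 14218 genes in all: 3 of the 5 Kupffer markers and each of the 5 other genes. Marco and Vsig4 were not analysed here. Each gene was read from its probe set with the highest mean over the 21 arrays. Levels are log2 expression values, so that a difference of 1 is a 2-fold difference, and levels of different genes are not compared because probe sets differ in how strongly they bind.

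Kupffer cells line the blood sinusoids of the liver, clear particles, microbes and old red cells from the blood, and are largely seeded before birth and kept by local division. Their identity depends on signals from neighbouring hepatocytes, stellate cells and endothelium, among them Notch ligands, bone morphogenetic proteins and sterols that act through the nuclear receptor LXR alpha. When tissue is injured or a tumour grows, blood monocytes enter along chemokine gradients and become macrophages that can lack the Kupffer markers and that carry many lysosomal and lipid-handling genes. Colony stimulating factor receptor 1 (Csf1r) keeps both kinds alive.

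The arrays came from 9 male young adult Fischer 344 rats inoculated with BDEneu cells, a rat bile duct epithelial line transformed with the activated neu form of the receptor tyrosine kinase gene Erbb2. An intrahepatic tumour and the normal right liver lobe were profiled in 3 rats each at day 10 (rats 1 to 3), day 15 (rats 4 to 6) and day 25 (rats 7 to 9), and a peritoneal metastasis in each of rats 7 to 9. This makes 7 groups of 3 arrays, and within a group each array is another rat. Every liver belonged to a rat that carried a tumour, every tumour grew from the same injected line, and livers of rats without a tumour were not analysed here. The pieces are whole tissue, so fewer cells of a type and less RNA per cell cannot be told apart in any result that follows.

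Erbb2 matched the labels, at 8.72 to 10.73 in the 9 tumours, 9.47 to 10.80 in the 3 metastases and 4.98 to 5.69 in the 9 livers. Array medians lay between 5.98 and 6.06. The mean of 17 hepatocyte genes was 12.31 to 12.81 in the livers, 7.38 to 11.54 in the tumours and 5.49 to 6.28 in the metastases, so the tumour pieces held a wide range of hepatocyte transcripts. The tumour and metastasis of rat 7 correlated at r = 0.993 over all probe sets, against 0.960 for the same pair in rats 8 and 9, and the larger effects of leaving out rat 7 are given beside the results. The mean of 8 pancreatic acinar genes reached 8.80 in the tumour of rat 5, 8.55 in the tumour of rat 9 and 11.02 in the metastasis of rat 8, with 5.37 to 6.55 in the other tumours and metastases.

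The 250 bases before the annotated transcription start are shown for the pair of genes that fell furthest in tumours, Clec4f and Cd5l, and for the pair that rose furthest, Gpnmb and Lyz2, since these 4 genes carry the contrast between the sets. Sequences are from RefSeq on the GRCr8 rat assembly, the Brown Norway reference and not the Fischer 344 strain of these animals, and run 5′ to 3′ on the strand of the gene. Clec4f lies at chr4:117696408-117696657 on the minus strand, Cd5l at chr2:175088665-175088914 on the plus strand, Gpnmb at chr4:79340878-79341127 on the plus strand and Lyz2 at chr7:54798012-54798261 on the minus strand. In Clec4f the capitals mark a stretch of 54 bases that stands there as a tandem pair, its copies beginning 151 and 97 bases before the start. In Gpnmb they mark the single motif match found.
Clec4f: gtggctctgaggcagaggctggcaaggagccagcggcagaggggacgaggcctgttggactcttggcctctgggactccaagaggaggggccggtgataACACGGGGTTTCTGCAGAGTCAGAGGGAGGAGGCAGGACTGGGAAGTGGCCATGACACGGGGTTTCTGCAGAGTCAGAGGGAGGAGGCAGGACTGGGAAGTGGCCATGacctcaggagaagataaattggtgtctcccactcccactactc
Cd5l: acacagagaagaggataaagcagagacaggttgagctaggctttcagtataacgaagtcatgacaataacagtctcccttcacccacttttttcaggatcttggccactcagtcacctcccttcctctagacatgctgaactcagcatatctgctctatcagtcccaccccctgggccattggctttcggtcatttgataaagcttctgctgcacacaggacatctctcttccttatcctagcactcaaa
Gpnmb: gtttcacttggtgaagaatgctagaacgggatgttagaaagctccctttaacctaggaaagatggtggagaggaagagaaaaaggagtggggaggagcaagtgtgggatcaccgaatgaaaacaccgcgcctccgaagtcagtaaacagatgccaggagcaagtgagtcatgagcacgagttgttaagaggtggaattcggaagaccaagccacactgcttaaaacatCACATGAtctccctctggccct
Lyz2: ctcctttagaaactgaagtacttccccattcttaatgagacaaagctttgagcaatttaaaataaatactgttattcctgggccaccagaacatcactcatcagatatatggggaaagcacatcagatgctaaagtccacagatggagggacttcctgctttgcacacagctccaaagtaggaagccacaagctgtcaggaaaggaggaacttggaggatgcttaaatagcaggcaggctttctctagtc

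Both strands of this window were searched in all 10 genes for 8 motifs of factors that act in macrophages, which are GAGGAAGT for PU.1, GTCAGCA for MAF factors, TCACGTGA for the lysosomal E-box, TCATGTG for the M-box of MITF, TTGCGCAA for C/EBP, GTGGGAA for RBPJ, and the LXR DR4 and NF-kB motifs. The only match was the M-box upstream of Gpnmb, on the opposite strand, with its first base 22 bases before the start. That motif stands in 3.07% of 33469 rat promoter windows of the same length. The other shares were 2.04% for PU.1, 3.53% for MAF, 0.657% for the lysosomal E-box, 0.14% for C/EBP, 5.27% for RBPJ, 0.0956% for NF-kB and 0.00299% for LXR DR4, and no match says only that these letters are not in this window.

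Which of the genes differed between tumour and the liver of the same rats? All 3 measured Kupffer markers were lower in tumours, and 3 of the 5 other genes, Gpnmb, Lgmn and Lyz2, were higher, while Adgre1 and Csf1r did not pass the test over all days together. The test was limma with Benjamini-Hochberg adjustment over all 14218 genes, called at an adjusted p under 0.05. Tumour and liver differed in most of the transcriptome, with 36.8% of genes called higher and 37.8% called lower, so a count of 3 lower or 3 higher members has to be read against those shares. The median difference was -2.85 for the 3 Kupffer markers, 1.26 for the 5 other genes and -0.03 over all genes tested. Without the day 25 tumour and metastasis of rat 7, all 5 of the other genes were called higher, with Adgre1 at 0.53 (adjusted p = 0.012) and Csf1r at 0.50 (adjusted p = 0.013).

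**Figure D1:**
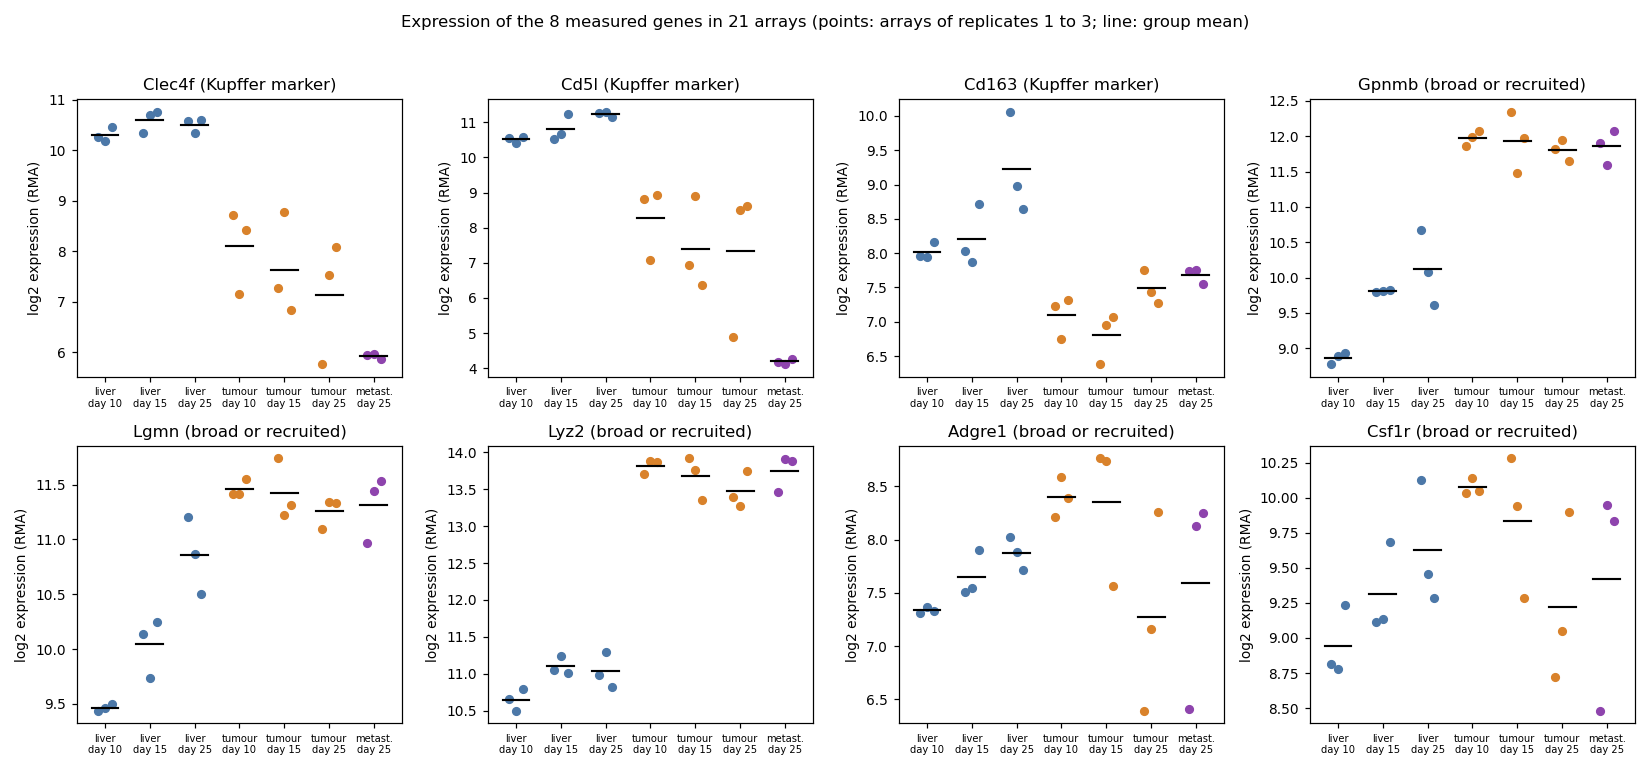
Expression of the 8 measured genes (log2, vertical axes, each with its own range) in the 7 groups; points are arrays and the line is the mean of 3. Clec4f, Cd5l and Cd163 lie lower in every tumour and metastasis than in any liver, Gpnmb and Lyz2 lie higher, and Lgmn, Adgre1 and Csf1r overlap between tumours and livers.

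Clec4f encodes a C-type lectin that in rodents is made almost only by Kupffer cells. Its level in livers was 10.27, 10.18 and 10.47 at day 10, 10.35, 10.69 and 10.76 at day 15 and 10.58, 10.33 and 10.61 at day 25. In tumours it was 8.71, 7.15 and 8.42 at day 10, 7.28, 8.79 and 6.84 at day 15 and 5.77, 7.54 and 8.08 at day 25, and in metastases 5.94, 5.97 and 5.87. Livers stayed within a narrow band, tumours were spread over 3 log2 units, and no tumour reached the lowest liver. Clec4f was lower in tumour over all days by a log2 difference of -2.85 (SE 0.30, adjusted p = 2.7e-07), and by -2.21 (SE 0.52, adjusted p = 0.0018) at day 10, -2.97 (SE 0.52, adjusted p = 0.00018) at day 15 and -3.38 (SE 0.52, adjusted p = 6.1e-05) at day 25, or -2.70 (adjusted p = 0.00032) without both rat 7 pieces. Expressed as a share of the liver of the same rat, the 9 tumours held 3.56% to 34.0% of the Clec4f signal and the 3 metastases 3.74% to 4.85%. The metastases and the rat 7 tumour lay below the lowest array median of 5.98, and how much of their signal is background was not tested.

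Cd5l encodes a secreted scavenger-receptor-type protein that resident macrophages release and that LXR alpha drives. Its livers read 10.54, 10.41 and 10.58 at day 10, 10.52, 10.65 and 11.22 at day 15 and 11.25, 11.29 and 11.15 at day 25. Tumours read 8.82, 7.09 and 8.94, then 6.93, 8.89 and 6.36, then 4.89, 8.51 and 8.62 over the same days, and metastases 4.19, 4.12 and 4.27. The 3 metastases sat close together near the low end of the scale, and the rat 7 tumour was the only tumour near them. Cd5l was lower in tumour by -3.18 over all days (SE 0.45, adjusted p = 8.6e-06), with -2.23 (SE 0.78, adjusted p = 0.023) at day 10 and -3.89 (SE 0.78, adjusted p = 0.00062) at day 25. Without both rat 7 pieces the day 25 difference was -2.67 (adjusted p = 0.0019). The other probe set of Cd5l gave -3.15 (SE 0.20, adjusted p = 8.0e-10 over the 20832 single-symbol probe sets).

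Cd163, the receptor that takes up haemoglobin bound to haptoglobin, differed least of the 3. Livers held 7.96, 7.95 and 8.16 at day 10, 8.04, 7.88 and 8.71 at day 15 and 10.06, 8.98 and 8.64 at day 25. Tumours held 7.24, 6.75 and 7.31, then 6.38, 6.96 and 7.06, then 7.76, 7.43 and 7.27, and metastases 7.75, 7.76 and 7.55. Here the highest tumour lay just below the lowest liver, and the metastases stood level with the day 25 tumours. The log2 difference between tumour and liver was -1.36 over all days (SE 0.17, adjusted p = 2.3e-06), -0.93 (SE 0.30, adjusted p = 0.014) at day 10, -1.41 (SE 0.30, adjusted p = 0.00093) at day 15 and -1.74 (SE 0.30, adjusted p = 0.00016) at day 25.

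At each single day all 3 Kupffer markers were called lower, against 28% of all genes at day 10, 23.6% at day 15 and 22.4% at day 25. The day 10 count turned on tumour replicate 2, the lowest day 10 tumour for each of the 3 markers: without it only Clec4f was called (-1.74, adjusted p = 0.015), with Cd5l at -1.63 (adjusted p = 0.12) and Cd163 at -0.75 (adjusted p = 0.071). Cd5l at day 10 also lost its call without liver day 10 replicate 1 (-2.22, adjusted p = 0.051) or replicate 3 (-2.19, adjusted p = 0.053). No piece of any rat, tumour or metastasis, was above its own liver for Clec4f, Cd5l or Cd163, that is 0 of 12 pieces for each gene. The share of all genes with every piece on 1 side of liver was not counted, so this does not set the 3 markers apart.

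Hepatocyte transcripts moved with Clec4f and Cd5l from piece to piece. Of 17 measured hepatocyte genes 16 were called lower in tumour over all days and none higher (median -2.48), beside 37.8% and 36.8% of all genes. The exception was Alb, the albumin gene, at -0.43 and near the top of the scale. Rat 7, whose tumour held the lowest hepatocyte median (1.93% of its liver), also had the lowest tumour Clec4f (3.56%), Cd5l (1.21%) and Cd163 (20.3%). Rat 5, whose tumour held the highest hepatocyte median (41.0%), had 26.7% for Clec4f, 29.4% for Cd5l and 52.9% for Cd163. The highest tumour shares were in rat 1 for Clec4f (34.0%) and Cd163 (60.5%) and in rat 3 for Cd5l (31.9%). In the metastases the hepatocyte median was 0.924% to 0.988% of liver, Cd5l 0.691% to 0.847%, Clec4f 3.74% to 4.85% and Cd163 20.1% to 46.8%. In each metastasis the shares of Clec4f and Cd163 were above the hepatocyte median, and that of Cd5l by the probe set used was below it. Such shares also depend on how far the liver level of a gene stands above the low end of the scale. The Cd5l shares rest on 1 probe set that was near the low end of the scale in the metastases. Its other probe set gave -4.35 for metastasis against liver, a smaller fall than the hepatocyte median of -6.66 to -6.76. The place of Cd5l below the hepatocyte median thus depends on the probe set. The part of liver tissue inside the pieces in the lower Kupffer markers was not tested.

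**Figure D2:**
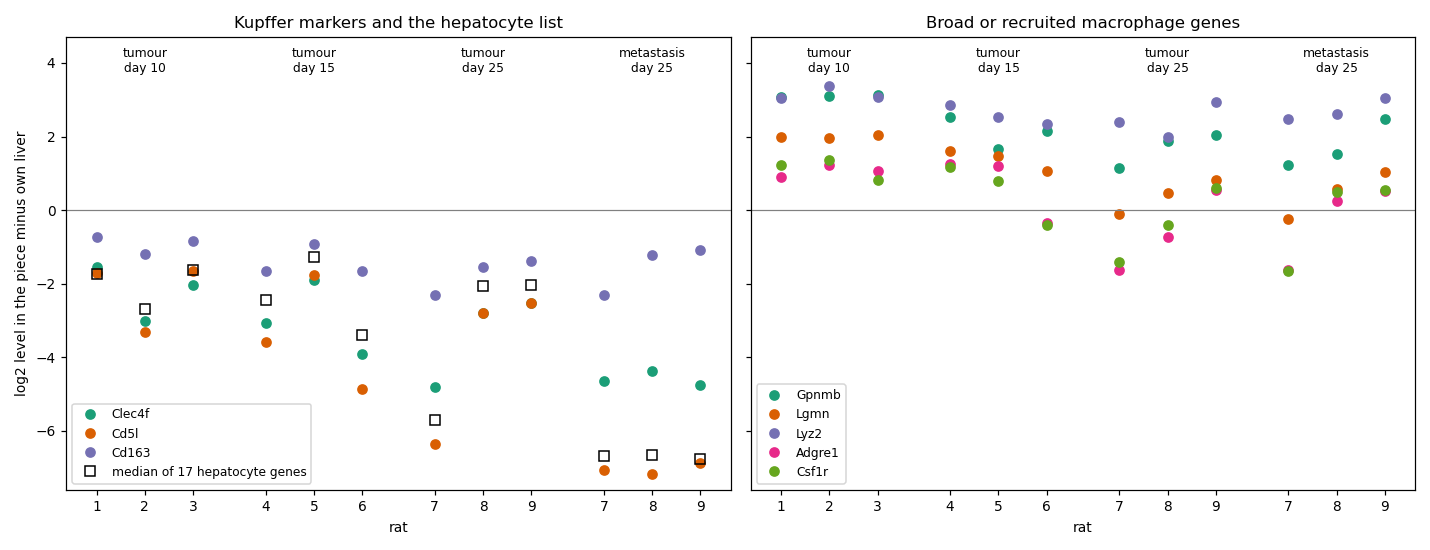
Log2 level of each of 12 pieces (9 tumours, 3 metastases; rats on the horizontal axis) minus the liver of the same rat, for the Kupffer markers with the median of 17 hepatocyte genes (left) and for the other 5 genes (right); the line at 0 is the own liver. All Kupffer markers lie below 0, Clec4f and Cd5l lie lowest in the tumour of rat 7 and in the metastases together with the hepatocyte median, and Gpnmb and Lyz2 lie above 0 in 12 of 12 pieces.

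Liver sinusoid endothelial genes mark the cells next to Kupffer cells. In tumour over all days 5 of 8 measured were called lower and 2 higher (median -1.09), beside 37.8% and 36.8% of all genes. The mean of these sinusoid genes ran from 7.27 to 8.77 in tumours, 7.10 to 8.20 in metastases and 8.92 to 9.68 in livers. Their part in the Kupffer marker result was not tested.

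Lyz2, the macrophage and neutrophil lysozyme gene, separated tumours from livers most clearly of the 5 other genes. Its livers read 10.65, 10.50 and 10.80 at day 10, 11.06, 11.24 and 11.01 at day 15 and 10.99, 11.30 and 10.82 at day 25. Tumours read 13.71, 13.89 and 13.87, then 13.92, 13.76 and 13.35, then 13.39, 13.28 and 13.74, and metastases 13.46, 13.91 and 13.88. All 12 pieces lay above every liver, and the 4 groups of pieces overlapped each other. How many of all genes separate so was not counted. Lyz2 was higher in tumour by 2.73 over all days (SE 0.10, adjusted p = 6.3e-13), by 3.17 (SE 0.17) at day 10, 2.57 (SE 0.17) at day 15 and 2.44 (SE 0.17) at day 25, each called. Neutrophil genes moved the same way: 5 of 7 measured were called higher in tumour over all days and 1 lower (median 2.19). Of all genes 36.8% were called higher and 37.8% lower. The neutrophil list means were 7.78 to 9.07 in tumours against 5.32 to 8.18 in livers, and the part of neutrophils in Lyz2 was not tested.

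Gpnmb encodes a membrane glycoprotein of lysosome-rich macrophages and osteoclasts. In livers it stood at 8.78, 8.89 and 8.94 at day 10, 9.80, 9.81 and 9.83 at day 15 and 10.68, 10.07 and 9.61 at day 25. Tumours stood at 11.86, 11.98 and 12.07, then 12.34, 11.47 and 11.98, then 11.82, 11.94 and 11.64, and metastases at 11.91, 11.59 and 12.08. The pieces formed 1 level at every day, while the livers of days 15 and 25 all lay above the livers of day 10. Its difference between tumour and liver was 2.30 over all days (SE 0.13, adjusted p = 1.4e-10), 3.11 (SE 0.22) at day 10, 2.12 (SE 0.22) at day 15 and 1.68 (SE 0.22) at day 25, called at each day. In every one of the 12 pieces Gpnmb was above the own liver, at 221% to 880.1% of its level, and the share of all genes that do so was not counted.

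Lgmn encodes legumain, a cysteine protease of lysosomes that cuts after asparagine. Livers gave 9.44, 9.46 and 9.50 at day 10, 10.14, 9.74 and 10.25 at day 15 and 11.21, 10.87 and 10.50 at day 25. Tumours gave 11.41, 11.42 and 11.55, then 11.74, 11.22 and 11.32, then 11.10, 11.34 and 11.33, and metastases 10.97, 11.45 and 11.53. By day 25 the liver of rat 7 had reached the level of its own tumour and metastasis. Lgmn was higher in tumour by 1.26 over all days (SE 0.11, adjusted p = 2.1e-08), 1.99 (SE 0.19) at day 10 and 1.38 (SE 0.19) at day 15, both called, and differed by 0.40 (SE 0.19, adjusted p = 0.085) at day 25, or 0.57 (adjusted p = 0.019) without the liver of rat 7. The other probe set of Lgmn stayed between 4.80 and 5.39 on all arrays and gave -0.22 over all days (SE 0.06, adjusted p = 0.0057 over the single-symbol probe sets), opposite in sign.

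Adgre1, an adhesion receptor gene widely used to mark macrophages, and Csf1r are expressed by Kupffer cells as well as by recruited macrophages. Adgre1 was 7.31, 7.37 and 7.33 in day 10 livers, 7.50, 7.54 and 7.90 in day 15 livers and 8.02, 7.88 and 7.72 in day 25 livers. Its tumours were 8.21, 8.58 and 8.39, then 8.76, 8.74 and 7.56, then 6.39, 7.16 and 8.26, and its metastases 6.40, 8.13 and 8.24. Day 10 tumours lay above all day 10 livers, whereas at day 25 the tumours lay on both sides of the livers. Adgre1 was not called at any day, at 1.06 (SE 0.46, adjusted p = 0.055) at day 10, 0.71 (SE 0.46, adjusted p = 0.21) at day 15 and -0.61 (SE 0.46, adjusted p = 0.28) at day 25. At day 10 it passed with the rat as a block (adjusted p = 0.0496 with a fixed and 0.0380 with a random block) and without both rat 7 pieces (adjusted p = 0.0053), and at day 25 it was called lower without the 3 arrays with pancreatic transcripts (-1.10, adjusted p = 0.048).

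Csf1r was 8.82, 8.78 and 9.23 in day 10 livers, 9.12, 9.14 and 9.68 in day 15 livers and 10.13, 9.46 and 9.29 in day 25 livers. Tumours were 10.04, 10.14 and 10.05, then 10.28, 9.94 and 9.28, then 8.72, 9.05 and 9.90, and metastases 8.48, 9.95 and 9.83. The rat 7 tumour and metastasis were the lowest pieces, and its liver was the highest liver. Csf1r was called higher in tumour at day 10, at 1.13 (SE 0.37, adjusted p = 0.016), and was 0.52 (SE 0.37, adjusted p = 0.25) at day 15 and -0.40 (SE 0.37, adjusted p = 0.39) at day 25. Without liver day 10 replicate 2 the day 10 difference was 1.05 with an adjusted p of 0.050, just above the threshold. Over all days it was 0.42 (SE 0.21, adjusted p = 0.087), and leaving out liver day 25 replicate 1 (0.50, adjusted p = 0.046), metastasis replicate 1 (0.42, adjusted p = 0.038), day 15 tumour replicate 3 (0.51, adjusted p = 0.043) or day 25 tumour replicate 1 (0.50, adjusted p = 0.047) brought the call.

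Of the 5 other genes, 4 were called higher at day 10 (Gpnmb, Lgmn, Lyz2 and Csf1r; 30.4% of all genes were), 3 at day 15 (Gpnmb, Lgmn and Lyz2; 28.2%) and 2 at day 25 (Gpnmb and Lyz2; 27.7%). The count alone does not show that the differences changed with time. That change was tested as an interaction, the tumour minus liver difference at day 25 less that at day 10. It was called for Lgmn at -1.60 (SE 0.26, adjusted p = 0.012) and Gpnmb at -1.42 (SE 0.32, adjusted p = 0.039), 2 of the 5 other genes, against 1.09% of all genes in that direction and 0.373% in the other. The remaining 6 members were also negative but not called: Adgre1 -1.67 (adjusted p = 0.20), Csf1r -1.53 (adjusted p = 0.15), Lyz2 -0.73 (adjusted p = 0.13), Cd163 -0.82 (adjusted p = 0.33), Cd5l -1.66 (adjusted p = 0.46) and Clec4f -1.17 (adjusted p = 0.43). Without both rat 7 pieces the last pair stood at -0.44 (adjusted p = 0.86) for Cd5l and -0.49 (adjusted p = 0.78) for Clec4f. The Gpnmb call was lost in 15 of 33 alternatives, among them a fixed rat block (adjusted p = 0.053), leaving out liver day 15 replicate 1 (adjusted p = 0.056) and leaving out any 1 tumour or liver array of day 10 or day 25 other than liver day 25 replicate 3 (adjusted p from 0.052 to 0.10). The Lgmn call held in all 33, with values from -1.78 to -0.88, but no alternative used its other probe set alone. That probe set, low on all arrays, gave -0.17 (SE 0.16, adjusted p = 0.61 in limma over the single-symbol probe sets).

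**Figure D3:**
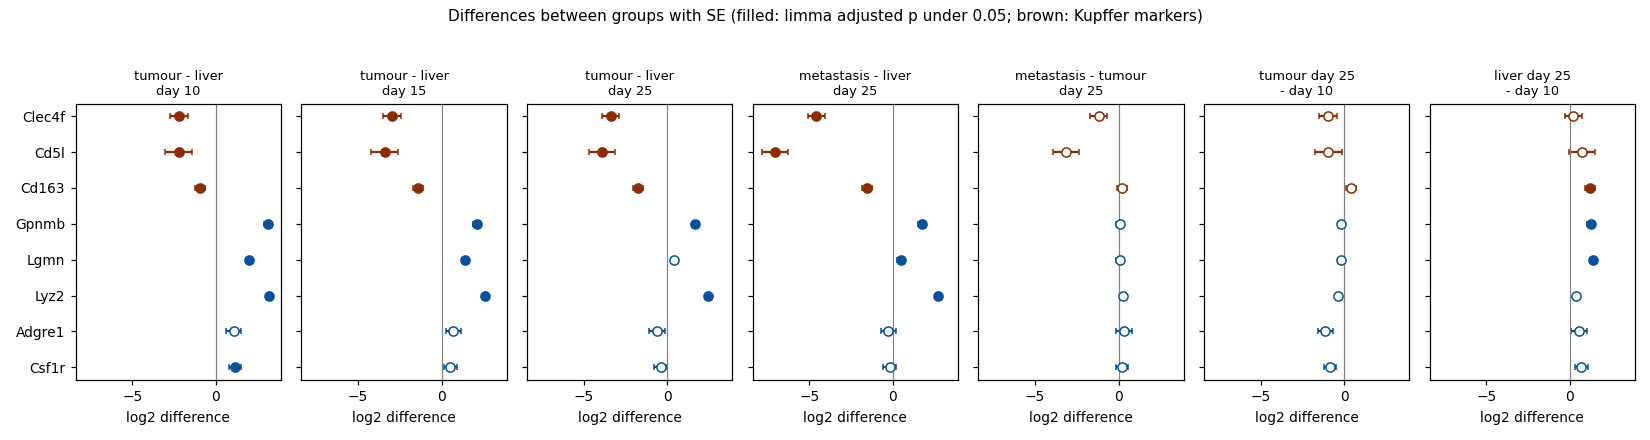
Log2 differences with SE (horizontal axes, 1 scale in all panels) of the 8 genes in 7 comparisons; filled symbols passed an adjusted p of 0.05 in limma and open symbols did not, and brown marks the Kupffer markers. The Kupffer markers lie left of 0 in all 4 comparisons with liver, and in the last panel Cd163, Gpnmb and Lgmn lie right of 0 with filled symbols.

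In the livers themselves Lgmn, Gpnmb and Cd163 rose from day 10 to day 25. Lgmn rose by 1.39 (SE 0.19, adjusted p = 0.00049), Gpnmb by 1.25 (SE 0.22, adjusted p = 0.0034) and Cd163 by 1.20 (SE 0.30, adjusted p = 0.019). This is 1 of 3 Kupffer markers and 2 of 5 other genes, against 5.33% of all genes called higher and 3.77% lower. The other probe set of Lgmn gave 0.20 (SE 0.11, adjusted p = 0.30 in limma over the single-symbol probe sets). Cd5l, Lyz2, Adgre1 and Csf1r, which were not called, also had all 3 day 25 livers above all 3 day 10 livers, while Clec4f overlapped. Such separation does not set the called genes apart, and its share of all genes was not counted. Clec4f was at 0.20 (SE 0.52, adjusted p = 0.86), Cd5l at 0.72 (SE 0.78, adjusted p = 0.63), Lyz2 at 0.38 (SE 0.17, adjusted p = 0.17), Adgre1 at 0.54 (SE 0.46, adjusted p = 0.51) and Csf1r at 0.68 (SE 0.37, adjusted p = 0.27). A fit of only these 2 groups also called Cd5l (adjusted p = 0.020) and Adgre1 (adjusted p = 0.0497). Day 15 livers lay between the other days in the mean of Gpnmb (9.81), Lgmn (10.04) and Cd163 (8.21).

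The liver of rat 7 was the highest liver for Gpnmb, Lgmn, Cd163, Adgre1 and Csf1r. Its bile duct gene mean was also the highest day 25 liver value, at 7.40 against 6.23 and 5.86, and the part of that tissue was not tested. Without this liver Lgmn was still called at 1.22 (adjusted p = 0.0024) and Gpnmb at 0.97 (adjusted p = 0.014), but Cd163 was not, at 0.79 (adjusted p = 0.082). Cd163 also lost its call without liver day 10 replicate 1 (1.17, adjusted p = 0.057) or replicate 2 (1.17, adjusted p = 0.066). Neutrophil genes rose in the same livers, 5 of 7 called higher and 0 lower (median 1.71), beside 5.33% and 3.77% of all genes. The neutrophil list means were 5.32 to 6.09 at day 10 and 7.53 to 8.18 at day 25.

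Within tumours no member was called between days by the same test. Between day 10 and day 15 limma called 0% of genes after adjustment (350 genes at an unadjusted p under 0.05, 0 of them members), and between day 15 and day 25 again 0% (1202 genes unadjusted, 2 of them members). From day 10 to day 25, 0.0141% of genes were called higher and 0.0422% lower, with 0 members called (2444 genes and 2 members unadjusted). The 2 members were Adgre1 at -1.13 (SE 0.46, adjusted p = 0.23) and Csf1r at -0.85 (SE 0.37, adjusted p = 0.26). Gpnmb was at -0.17 (SE 0.22) and Lgmn at -0.20 (SE 0.19) in the tumours, beside the rises of 1.25 and 1.39 in the livers over the same interval. For Lgmn and Csf1r every day 25 tumour lay below every day 10 tumour, and the share of all genes that separate so was not counted. Cd5l was at -0.94 (SE 0.78) from day 10 to day 25, a value that turned to 0.28 without day 25 tumour replicate 1. Adgre1 was called lower without the 3 arrays with pancreatic transcripts, at -1.62 (adjusted p = 0.039), when 1156 genes were called in place of 8.

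Did the peritoneal metastasis, which grew outside the liver, differ from the day 25 tumour of the same rats? None of the 8 members was called, against 0.00703% of all genes called higher and 0.331% lower by limma (863 genes and 2 members at an unadjusted p under 0.05). Cd5l was at -3.15 (SE 0.78, adjusted p = 0.16) and Clec4f at -1.20 (SE 0.52, adjusted p = 0.77). The other probe set of Cd5l gave a smaller difference, -0.81 (SE 0.35, adjusted p = 0.81 over the single-symbol probe sets), and the mean of both gave -1.98 (adjusted p = 0.27), so the size for Cd5l depends on the probe set. Metastasis minus tumour was -0.70 for Cd5l in rat 7, -4.39 in rat 8 and -4.35 in rat 9, and 0.18, -1.57 and -2.21 for Clec4f. Rat 7 thus stood apart from the other two, its tumour being already low in both genes. Without both rat 7 pieces Cd5l was called lower in metastasis at -4.37 (adjusted p = 0.0011), and likewise without its tumour alone (-4.37, adjusted p = 0.00019). Hepatocyte genes fell alongside, 6 of 17 called lower and none higher (median -3.53), and their part was not tested.

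The 5 other genes and Cd163 were not called between metastasis and tumour either, with Gpnmb at 0.05 (SE 0.22), Lgmn at 0.06 (SE 0.19), Lyz2 at 0.28 (SE 0.17), Adgre1 at 0.32 (SE 0.46), Csf1r at 0.20 (SE 0.37) and Cd163 at 0.20 (SE 0.30). The sign of Gpnmb, Lgmn, Adgre1 and Csf1r turned when single arrays were left out. A list used to mark resident macrophages of the peritoneum (Gata6, Icam2, Selp, F5, Rarb, Alox15 and Prg4) had 6 measured genes. None was called between metastasis and tumour, though 3 of the 6 had an unadjusted p under 0.05 in limma (median -0.14, lowest -2.20). Their mean was 6.46 to 6.93 in the metastases, 6.52 to 7.58 in the day 25 tumours and 8.04 to 8.46 in the day 25 livers. With its highest mean in livers, the list does not single out macrophages of the peritoneum in these pieces.

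Against the liver of day 25, metastases were lower in all 3 Kupffer markers and higher in Gpnmb, Lyz2 and Lgmn, with 23.6% of all genes called lower and 33.4% higher. Cd5l was at -7.04 (SE 0.78, adjusted p = 1.5e-06), Clec4f at -4.58 (SE 0.52, adjusted p = 1.8e-06) and Cd163 at -1.54 (SE 0.30, adjusted p = 0.00033). For Cd5l the other probe set gave -4.35 (SE 0.35, adjusted p = 5.8e-08 over the single-symbol probe sets) and the mean of both -5.70, so all agree in sign and call but not in size. Lyz2 was at 2.72 (SE 0.17, adjusted p = 3.1e-09), Gpnmb at 1.74 (SE 0.22, adjusted p = 6.4e-06) and Lgmn at 0.46 (SE 0.19, adjusted p = 0.045). The Lgmn call was lost in 18 of 33 alternatives, among them the mean of its probe sets (0.10, adjusted p = 0.48), the fixed rat block (adjusted p = 0.062) and leaving out any 1 of 14 arrays, with values down to 0.28 (adjusted p = 0.23) without liver day 25 replicate 3. Adgre1 was at -0.28 (SE 0.46, adjusted p = 0.61) and Csf1r at -0.20 (SE 0.37, adjusted p = 0.66), and without metastasis replicate 1, from rat 7, they were at 0.31 and 0.27. This comparison and the one of tumour with liver at day 25 share the same 3 livers.

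The order of the group means was alike for Clec4f and Cd5l: livers highest, then tumours, then metastases. Clec4f had means of 10.30 ± 0.15, 10.60 ± 0.22 and 10.51 ± 0.15 (SD, n = 3) in livers of days 10, 15 and 25, 8.10 ± 0.83, 7.64 ± 1.02 and 7.13 ± 1.21 in tumours and 5.93 ± 0.05 in metastases. Neighbouring groups of 1 tissue overlapped, and the step from liver to tumour exceeded the spread. Gpnmb ran the other way, with 8.87 ± 0.08, 9.81 ± 0.02 and 10.12 ± 0.54 (SD, n = 3) in livers and 11.80 ± 0.15 to 11.97 ± 0.11 in the 4 groups of pieces, which did not differ beyond their spread.

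Other genes of Kupffer cells and of iron-recycling macrophages were mostly lower in tumour. Of 14 listed, 12 were measured, of which 7 were called lower over all days, 1 higher and 4 not called (median -0.75, against -0.03 over all genes). Among all genes 37.8% were called lower and 36.8% higher. Nr1h3, which encodes LXR alpha, was at -2.38 (SE 0.25, adjusted p = 2.7e-07), the complement gene C6 at -2.36 (SE 0.57, adjusted p = 0.0014) and the iron exporter gene Slc40a1 at -2.15 (SE 0.32, adjusted p = 1.3e-05). Hepatocytes also express Nr1h3 and C6. The 1 member that rose was the folate receptor gene Folr2 at 0.91, named after its value was seen. Hmox1, the haem oxygenase gene, was not called between tumour and liver (0.21, adjusted p = 0.40), and rose in livers by 2.29 from day 10 to day 25 (SE 0.40, adjusted p = 0.0031).

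Genes of macrophages of any origin were mostly higher in tumour, 15 of 17 measured called higher, 1 lower and 1 not called (median 0.95). Of all genes 36.8% were called higher and 37.8% lower. The tetraspanin gene Cd53 was at 2.65 (SE 0.11, adjusted p = 2.2e-12), the Fc receptor gamma chain gene Fcer1g at 1.86 (SE 0.10, adjusted p = 9.5e-11) and the leukocyte phosphatase gene Ptprc (CD45) at 1.83 (SE 0.11, adjusted p = 2.8e-10). All 3 are also expressed by other leukocytes. The engulfment receptor gene Mertk was at -0.11 (adjusted p = 0.38). In livers from day 10 to day 25, 9 of the 17 were called higher and none lower (median 0.77), beside 5.33% and 3.77% of all genes. There Cd53 was at 1.02, Ptprc at 0.93 and Fcer1g at 0.71. At day 25 only 7 of the 17 were called higher in tumour and 1 lower (median 0.47), beside 27.7% and 22.4% of all genes. At day 10, 14 were called higher and 0 lower (median 1.56), beside 30.4% and 28% of all genes. The interaction was called lower for 8 of the 17 and higher for none, beside 1.09% and 0.373% of all genes.

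Blood monocyte and early macrophage genes gave 11 of 13 measured higher in tumour, none lower and 2 not called (median 1.24). Ms4a7, a membrane protein gene of macrophages, was at 2.41 (SE 0.26), the integrin gene Itgax at 2.30 (SE 0.11) and the chemokine receptor gene Ccr1 at 2.15 (SE 0.19), each called, with Ly86 at 0.11 (adjusted p = 0.74). Ccr1 also rose in livers between day 10 and day 25, by 1.86 (SE 0.33, adjusted p = 0.0033). Ligands that attract or feed macrophages gave 5 of 10 higher and 1 lower (median 0.87), or 2 lower with the rat as a block, beside 36.8% of all genes higher and 37.8% lower. The chemokine genes Ccl2, Ccl7 and Ccl3 were at 4.85 (SE 0.33), 3.36 (SE 0.39) and 2.00 (SE 0.58), all called, and Vegfa at -0.26 (adjusted p = 0.27). The 1 ligand called lower was Csf1, a ligand of the receptor encoded by Csf1r, at -0.58, named after its value was seen.

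Lysosomal and lipid-handling genes, the set to which Gpnmb and Lgmn are close in function, gave 15 of 26 measured higher, 6 lower and 5 not called (median 0.47). The elastase gene Mmp12 was at 4.60 (SE 0.19), the osteopontin gene Spp1 at 4.42 (SE 0.25) and the tetraspanin gene Cd9 at 4.13 (SE 0.20), each called, and the lipid droplet gene Plin2 at -0.18 (adjusted p = 0.38). Spp1 and Cd9 are also known from bile duct and tumour epithelium. Niche genes of the Notch, bone morphogenetic protein and LXR pathways gave 5 of 13 higher and 5 lower (median 0.01), close to the 36.8% and 37.8% of all genes, so the counts say nothing particular about them. Mylip, an LXR target that degrades the LDL receptor, was at 1.57 (SE 0.12), the Notch pathway transcription factor gene Rbpj at 1.57 (SE 0.10) and Rxra, the partner receptor of LXR, at -1.56 (SE 0.11), each called, with the endoglin gene Eng at -0.01 (adjusted p = 0.95).

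**Figure D4:**
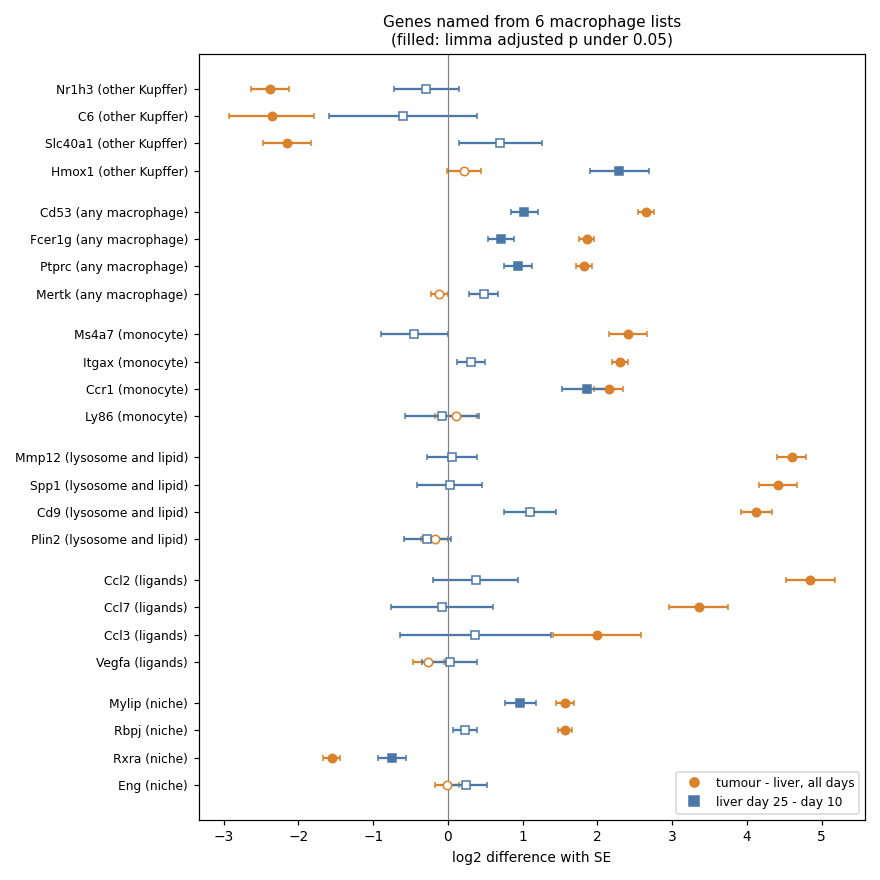
Log2 differences with SE (horizontal axis) of 24 genes named from 6 macrophage lists, for tumour minus liver over all days (circles) and liver day 25 minus day 10 (squares); filled symbols passed an adjusted p of 0.05 in limma. Nr1h3, C6 and Slc40a1 lie left of 0 in the tumour comparison, and Hmox1, Ccr1, Cd53, Ptprc, Fcer1g and Mylip lie right of 0 with filled squares.

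The genes whose pattern over the 21 arrays was most like Clec4f were Prox1 (Pearson r = 0.992), Mst1 (0.992), Aldh6a1 (0.991), Grb14 (0.990) and Hpn (0.989), with Spearman rho from 0.882 to 0.934. Those most like Gpnmb were Clec7a (r = 0.983), S100a11 (0.982), Trim35 (0.982), Cd53 (0.980) and Lgals3 (0.979), with rho from 0.838 to 0.934. Over the 12 tumour and metastasis arrays those most like Cd163 were Mrpl38 (r = 0.945), Eif4ebp2 (0.944), Bag4 (0.913), Tmem41a (0.892) and Pcnx1 (0.886), with rho from 0.867 to 0.930. These coefficients describe the arrays, which fall into liver and tumour clusters and share rats, and each set is the top of 14218 genes, so no p-value is given. None of the other members stood among the 5 most like any of the 3 genes.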

How the data were processed

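The authors deposited log2 expression values per probe set made with RMA, per the submitters' processing notes, which corrects background, equalises the distributions of the 21 arrays and summarises the probes of a probe set. For RMA, program and version were not given in the sources used here. There were 31099 probe sets, with values from 3.16 to 14.62. RMA forces arrays to share 1 distribution, which would remove part of any shift shared by most transcripts, and values near either end of the scale are compressed. Arrays carry no read depth, and their number limits the precision.

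The annotation given names 1 symbol for 20832 probe sets, several for 436 and does not list 9831. Symbols were updated through the gene identifier where a current rat table held it (20764). Genes were represented by the single-symbol probe set of highest mean, 14218 in all, 4526 of them with several probe sets. The model was lmFit followed by eBayes of limma 3.58.1 under R 4.3.3, all 21 arrays as 7 group means with a shared spread per gene, over 11 comparisons, with Benjamini-Hochberg adjustment over all genes. Results were checked under 33 other settings, and the fit was tested on simulated data. The description of each day 25 liver names another day than its title and source name, and day 25 was used.

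The labels give the rat of each piece, so pieces of a rat are pairs by animal. Deviations of paired pieces from their group means correlated at 0.04 to 0.58, with a consensus correlation of 0.136. The fits with the rat as a replicate block are given where they change a call.

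The members and the 17 gene lists (200 genes, 176 measured) were chosen with earlier results of these data known, and so were the tests. The rule for named genes took all members, up to 3 called genes with the largest change and the uncalled gene of highest mean (tumour against liver, all days) from each macrophage, ligand and niche list, and the 5 genes most correlated with Clec4f, Gpnmb and Cd163, provisional names left out. RefSeq promoter windows matched all 10 members.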

Additional observations from a re-analysis of the deposited data

Results flagged for a closer look

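For 2 genes the tumour-liver difference itself differed between time points by the interaction test in limma. It was smaller at day 25 than at day 10 by a log2 value of -1.42 for Gpnmb (SE 0.32, adjusted p = 0.039) and -1.60 for Lgmn (SE 0.26, adjusted p = 0.012). In the livers Gpnmb rose by 1.25 and Lgmn by 1.39 between these days, while the tumours stood at -0.17 and -0.20, neither called. The other probe set of Lgmn, low on all arrays, gave -0.17 for the interaction and 0.20 in the livers, neither called. All 3 rats of day 10 had larger differences than all 3 rats of day 25 for both genes. This follows the same arrays as the interaction and adds no separate evidence, and the share of all genes that separate so was not counted. The liver of rat 7, the highest for both, also had the highest bile duct gene mean among day 25 livers (7.40), and its part was not tested.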

How the results depend on the processing

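The 6 members called between tumour and liver over all days (Clec4f, Cd5l, Cd163, Gpnmb, Lgmn and Lyz2) kept direction and call in all 33 alternatives. Without the day 25 tumour and metastasis of rat 7, an alternative chosen after seeing the data, 5 other genes in place of 3 were called higher there. In the same setting Cd5l was at 0.28 in tumour day 25 against day 10, and metastasis against tumour called 166 genes in place of 48, with 1 Kupffer marker lower in place of 0. Against liver, metastases were then at 0.31 for Adgre1 and 0.27 for Csf1r, and the interaction called 1 of the other genes lower in place of 2. That count was also 1 with quantile normalization and with the rat as a fixed replicate block. The rat as a random replicate block raised the genes called in the interaction from 208 to 402, and the blocks changed no other call of a member than those given for Gpnmb, Lgmn and Adgre1. Without the 3 arrays with pancreatic transcripts the interaction called 412 genes, tumour day 25 against day 10 called 1156 in place of 8 with 1 other gene lower in place of 0, metastasis against tumour called 19, and tumour against liver at day 25 gave 1 other gene lower in place of 0. A fit of only the groups compared called 0 genes between the day 25 and day 10 tumours, 1 between metastasis and tumour, and 557 in place of 1294 between the day 25 and day 10 livers. The probe set of largest variance gave 2 genes in place of 0 in tumour day 25 against day 15. Of the genes called in tumour day 25 against day 10, 25% were higher, against 14.3% after quantile normalization and 12.5% after median centring. The causes were not tested.

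Leaving out 1 array at a time gave 0 to 1 genes for tumour day 15 against day 10, 0 to 7 for day 25 against day 15, 0 to 159 for day 25 against day 10, 21 to 220 for metastasis against tumour, 626 to 1651 for liver day 25 against day 10 and 30 to 402 for the interaction. The Kupffer markers called lower at day 10 ran from 1 to 3, those lower in metastasis against tumour from 0 to 1, those higher in day 25 liver from 0 to 1, and the other genes lower in the interaction from 1 to 2. Cd5l in tumour day 25 against day 10 ran from -1.58 to 0.28. Metastasis against tumour ran from -0.11 to 0.92 for Adgre1, -0.066 to 0.67 for Csf1r, -0.056 to 0.19 for Gpnmb and -0.049 to 0.23 for Lgmn. Metastasis against liver ran from -0.61 to 0.31 for Adgre1 and -0.47 to 0.27 for Csf1r. With 3 arrays a group, changes well above the SE given could go uncalled, as for Cd5l in metastasis against tumour at -3.15 (SE 0.78). A gene that was not called may thus have changed. Levels near the bottom of the scale, such as Cd5l in metastases, give no exact size.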
